A study of Mus musculus with 4 samples.

Results

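Chromatin modifiers, remodelers and DNA methylation genes were followed in mouse CD8 T cells with and without added BATF, as 50 genes taken by name from the 24312 genes of the table. They form 8 families: 7 genes of DNA methylation, 7 of Polycomb, 11 sirtuins and histone deacetylases (HDACs), 4 acetyltransferases, 5 lysine demethylases, 4 methyltransferases of histone H3 lysine 9, 7 SWI/SNF and CHD remodelers, and 5 genes of CTCF and cohesin. All 50 were listed and all 50 passed the filter on low counts. BATF is a transcription factor of the AP-1 family that opens and binds regulatory DNA in activated T cells, and the comparison asks which mRNAs differ when it is overexpressed.

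The cells were P14 CD8 T cells, whose transgenic receptor sees the gp33 peptide of a mouse virus, on a C57BL/6 background. Both groups were activated with 100 ng/ml gp33 for 1 day and spin transduced with a retrovirus, either MIG (MSCV-IRES-GFP, the empty vector with GFP) or MIG-BATF (the same vector with BATF). Both then had 1 more day of activation, 2 days in 10 ng/ml IL-2, a sort for CD8+ GFP+ cells and 2 days in 1 ng/ml IL-2. Poly(A) RNA of 2 libraries per group was sequenced, and the groups are called MIG and BATF below. Replicates 1 and 2 are named in the order of the table's own numbers, which no label ties to the numbers in the sample titles. The design text calls the libraries biological replicates without naming separate mice, so the p-values reflect the spread of these libraries, some of which may be technical.

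Libraries held 19004726 to 24795707 fragments. Replicates differed by more than counting noise (chi-square per gene 17.7 in MIG and 9.49 in BATF), so each counted as 1 sample. The overexpressed gene Batf stood at 36.1 and 26.5 CPM in MIG and 1342 and 934 CPM in BATF (log2 fold change 5.18, 95% interval 4.62 to 5.74, edgeR adjusted p = 0.00188, quasi-likelihood test). CPM is a gene's count scaled to library size, with libraries set level by the trimmed mean of M values, and fold changes are BATF over MIG from the same fit. T cell markers were high in every library, with a sum over 8 genes of 2614 to 2802 FPKM in MIG and 2323 to 2488 in BATF. The genes were Cd8a and Cd8b1 together with Cd3e, Cd3d, Cd3g, Cd2, Lck and Cd247, which are not particular to CD8 T cells. Markers of other cells were low: 4 of 5 B cell genes, 4 of 6 myeloid, 2 of 3 CD4 T cell, 2 of 2 NK cell and 2 of 3 erythroid genes lay under 1 FPKM in every library. The summed B cell markers were 13.8 to 17.9 FPKM in MIG and 11.7 to 12.6 in BATF, most of it Cd79b, and the summed CD4 T cell markers 5.69 to 7.13 and 10.5 to 12.8 FPKM, most of it Zbtb7b. Their part in the results below was not tested.

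Chromatin regulators write, erase and read chemical marks on DNA and histones, slide or evict nucleosomes, and fold DNA into loops. In activated T cells the maintenance machinery copies marks through rapid divisions, while de novo methylation and Polycomb marks are known to be laid down at genes that effector cells shut off. Most of these proteins are enzymes or scaffolds that all cells make.

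None of the 50 genes passed the test between BATF and MIG, where 1.09% of the 13008 genes tested did (142 genes, with 0.884% higher and 0.208% lower). With p-values left unadjusted, 8 of the 50 lay under 0.05, 3 higher (Ezh2, Bmi1 and Kdm2b) and 5 lower (Dnmt3a, Dnmt3b, Tet3, Kdm6b and Smarca2). That is 16.0% of the members beside 10.8% of all genes tested, of which 6.69% were higher and 4.09% lower. DESeq2, limma on log2(FPKM + 1), another scaling and a fit without the low-count filter also called 0 members, while a fit with the table's replicate number as a block, a number not known to pair libraries, did call some. Leaving out MIG replicate 2 called 3 members (6.0%), Ezh2 higher and Kdm6b and Hdac7 lower, beside 4.27% of all 13788 genes tested in that fit, and leaving out any other library called 0. A fit with 1 library left out keeps 1 library in a group, so its p-values hold the replicate spread of the other group only. The median log2 fold change of the 50 was −0.0050, with 24 positive and 26 negative, beside −0.0056 over all genes tested. In bulk RNA, fewer cells that express a gene and less RNA per cell cannot be told apart. The median size of the change, without its sign, was 0.083 for the 50 and 0.12 for all genes tested. It was 0.071 for 175 other chromatin genes and 0.044 for 23 cell cycle genes, both described below.

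The absence of calls came with narrow intervals. For all 50 genes the 95% interval of the fold change stayed inside 2-fold in either direction, which held for 75.4% of all genes tested. For 40 of the 50 it stayed inside 1.5-fold, beside 58.9% of all genes tested. The other 10 were Dnmt3b, Tet1, Ezh2, Cbx7, Hdac5, Hdac7, Kdm4a, Kdm5b, Kdm6b and Chd7. Such intervals were not particular to the members. Of 175 other chromatin genes, 165 stayed inside 2-fold and 147 inside 1.5-fold, and 23 of 23 cell cycle genes stayed inside both. The members also had a higher median level than all genes tested (27.8 against 9.07 FPKM), and no comparison at equal level was made. Estimates ran from a fold of 0.735 for Dnmt3b to 1.31 for Ezh2. In 19 of the 50 the groups did not overlap in CPM, a share to be read against the 38.7% of all genes tested for which this held.

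**Figure D1:**
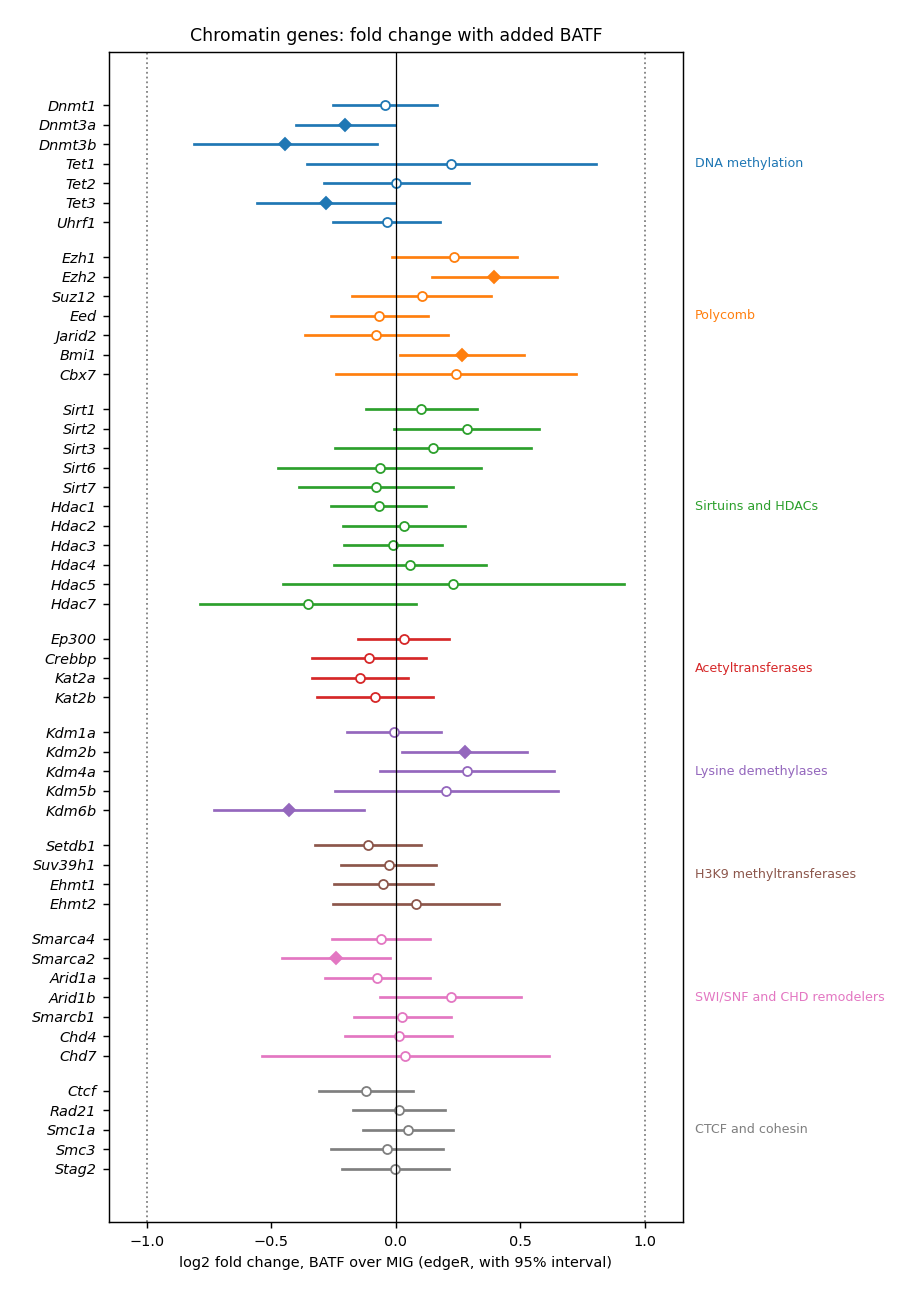
Log2 fold change of BATF over MIG for each of the 50 genes (points, x axis) with its 95% interval from the edgeR fit (lines), grouped and coloured by family; filled diamonds mark the 8 genes with an unadjusted p under 0.05 and dotted lines mark 2-fold. Every interval lies between the dotted lines, and the widest belong to genes whose replicates differ most, such as Hdac5, or with few fragments, such as Tet1.

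Most of these genes were well expressed, and levels are compared between genes here as FPKM, which divides by transcript length. The median of the 50 was 27.8 FPKM, beside 9.07 FPKM for all genes tested, and 38 of the 50 lay above the latter group's median. The 7 genes at or above 100 FPKM on average were Rad21 (159), Hdac1 (154), Dnmt1 (145), Uhrf1 (141), Chd4 (118), Ezh2 (112) and Smc1a (107). Below 10 FPKM were 12 genes: Dnmt3a, Dnmt3b, Tet1, Tet2, Jarid2, Hdac4, Crebbp, Kat2b, Kdm5b, Kdm6b, Arid1b and Chd7. By family the median level ran from 6.93 FPKM for DNA methylation to 76.2 FPKM for CTCF and cohesin.

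**Figure D2:**
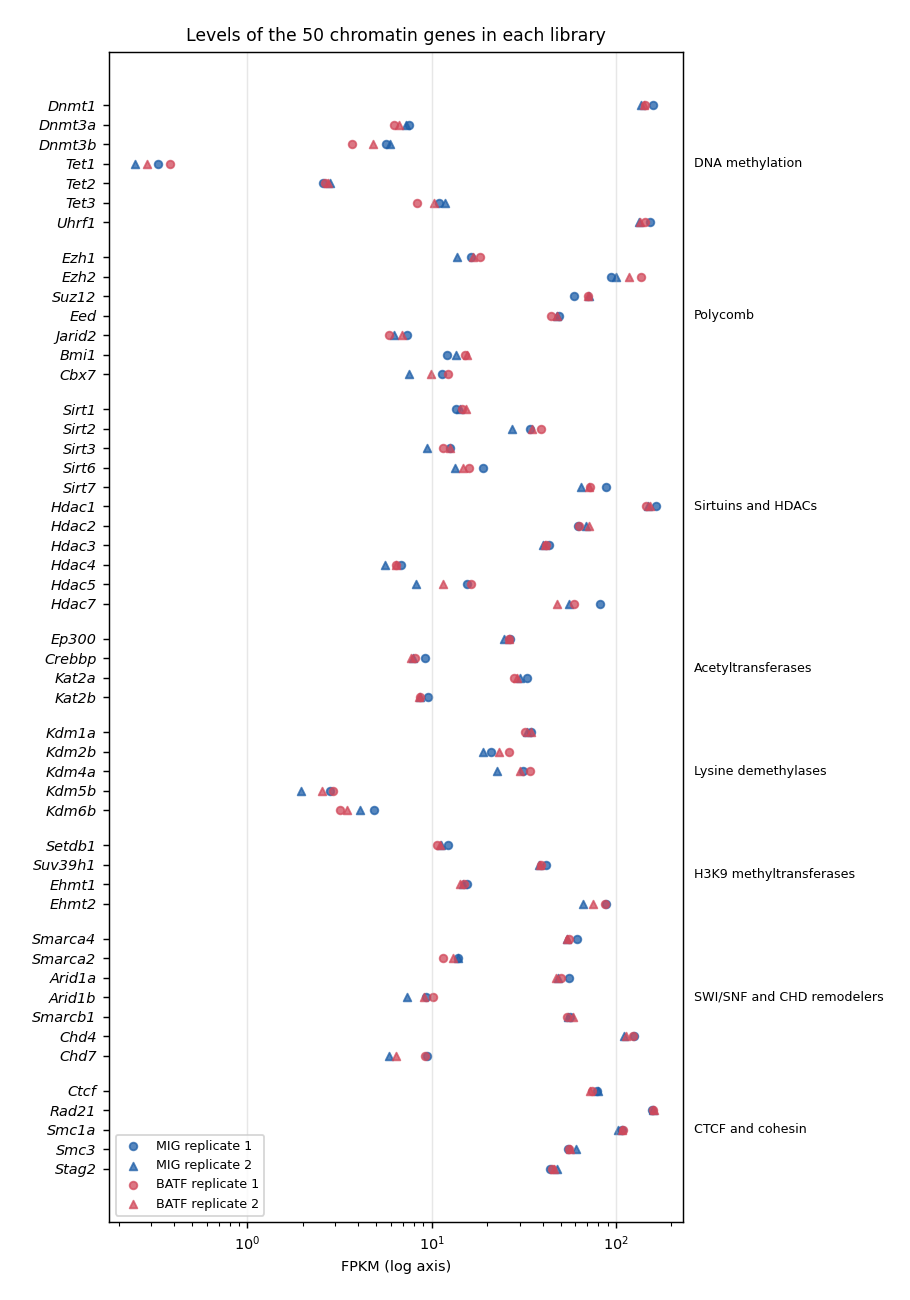
FPKM of each of the 50 genes (rows, by family) in the 4 libraries on a log axis; colour marks the group and shape the replicate. Levels span from Tet1, under 1 FPKM in every library, to Rad21, Hdac1 and Dnmt1 at about the same height, and for most genes the 4 points lie on top of each other.

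Among the genes of DNA methylation, maintenance and de novo enzymes stood apart in level. Dnmt1, which copies methylation onto the new strand after replication, stood at 822 and 733 CPM in MIG against 764 and 745 CPM in BATF, with groups that overlap (log2 fold change −0.044, 95% interval −0.25 to 0.16). Its partner Uhrf1, which finds hemimethylated CpG sites and brings DNMT1 there, stood at 510.2 and 461 CPM in MIG against 492 and 455 CPM in BATF (log2 fold change −0.037, 95% interval −0.25 to 0.18). Neither differed by more than the spread between replicates. Both are genes of dividing cells, and the 23 cell cycle genes listed beside them had 0 calls, 0 at an unadjusted p under 0.05, a median log2 fold change of −0.027 and a range of −0.14 to 0.22.

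Both de novo methyltransferases were lower in both BATF libraries without passing the test. Dnmt3a, the main de novo enzyme of T cells, which silences naive and memory genes as effectors form, stood at 72.1 and 71.8 CPM in MIG against 61.0 and 64.1 CPM in BATF (log2 fold change −0.20, 95% interval −0.40 to −0.0024, edgeR adjusted p = 0.454). Dnmt3b, its paralog, stood at 21.8 and 23.7 CPM in MIG against 14.7 and 18.7 CPM in BATF (log2 fold change −0.44, 95% interval −0.81 to −0.076, edgeR adjusted p = 0.329). In both genes the 2 groups did not overlap, and BATF replicate 1 was the lowest library. Without that library the estimate for Dnmt3b was −0.28, and without BATF replicate 2 it was −0.63.

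The TET enzymes oxidise methylcytosine, the first step of its removal. Tet3, the most abundant of them here per length, stood at 117 and 131 CPM in MIG against 91.8 and 112 CPM in BATF (log2 fold change −0.28, 95% interval −0.56 to −0.0015, edgeR adjusted p = 0.459), with both BATF libraries below both MIG libraries. Dropping BATF replicate 1 made the estimate −0.14, and dropping BATF replicate 2 made it −0.43. Tet2, whose loss in mouse CD8 T cells favours memory formation, stood at 23.1 and 26.2 CPM in MIG and 24.3 and 25.0 CPM in BATF (log2 fold change 0.0014, 95% interval −0.29 to 0.29). Tet1 was the only member under 1 FPKM on average, with 73 fragments or more in each library and 0.326 and 0.246 FPKM in MIG and 0.380 and 0.284 FPKM in BATF (log2 fold change 0.22, 95% interval −0.36 to 0.80). Over the family, 0 of 7 passed, 5 of 7 estimates were negative and the median log2 fold change was −0.044. It depended on the library left out, and dropping MIG replicate 1 or 2 gave −0.083 or −0.13, while dropping BATF replicate 1 or 2 gave −0.094 or −0.027. The ratio of Dnmt3a to Dnmt3b in FPKM was 1.34 and 1.23 in MIG and 1.69 and 1.39 in BATF, and that of Tet2 to Tet3 was 0.235 and 0.239 in MIG and 0.315 and 0.266 in BATF. Both ratios were higher in both BATF libraries, and 2 libraries against 2 cannot give a two-sided exact permutation p below 0.3333.

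Polycomb complexes deposit and read trimethylated lysine 27 of histone H3, a mark of silenced genes, and EZH2 is the main methyltransferase of dividing cells. With all 4 libraries, Ezh2 had the smallest adjusted p of the 50 genes. It stood at 229 and 253 CPM in MIG against 343 and 291 CPM in BATF, so that both BATF libraries lay above both MIG libraries (log2 fold change 0.39, 95% interval 0.14 to 0.65, edgeR adjusted p = 0.194). In fits with 1 library left out its log2 fold change was 0.28 to 0.51, and it was 0.46 without MIG replicate 2. The 250 bases before its annotated start site are shown because Ezh2 had that smallest adjusted p. They lie at chr6:47595031-47595280 on the minus strand of GRCm38.p6 (RefSeq, a later build than the mm9 of the counts), hold 23 CpG dinucleotides, the letters that DNA methyltransferases act on, and print these in capitals:
Ezh2: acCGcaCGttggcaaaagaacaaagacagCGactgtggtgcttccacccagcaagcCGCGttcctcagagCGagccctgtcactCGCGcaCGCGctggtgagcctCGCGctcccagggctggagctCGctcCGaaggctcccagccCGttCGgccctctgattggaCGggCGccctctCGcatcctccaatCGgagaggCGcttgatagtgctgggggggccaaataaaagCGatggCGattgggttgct

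Its paralog Ezh1, the methyltransferase of resting cells, stood at 65.0 and 56.8 CPM in MIG against 75.5 and 68.1 CPM in BATF (log2 fold change 0.24, 95% interval −0.016 to 0.49), with groups that did not overlap. The ratio of Ezh2 to Ezh1 in FPKM was 5.77 and 7.27 in MIG and 7.42 and 7.01 in BATF, and the groups overlapped in it. Suz12 and Eed, the core partners that EZH2 needs for activity, gave log2 fold changes of 0.10 (95% interval −0.17 to 0.38) and −0.067 (95% interval −0.26 to 0.13). Suz12 overlapped between groups. Eed was lower without overlap, at 91.5 and 91.8 CPM in MIG against 84.6 and 90.4 CPM in BATF. Jarid2, an accessory factor that helps the complex find its targets, gave −0.079.

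In the other Polycomb complex, which ubiquitinates histone H2A, Bmi1 is a core subunit tied to self-renewal, and Cbx7 reads the methyl mark. Bmi1 stood at 41.0 and 47.5 CPM in MIG against 52.9 and 53.4 CPM in BATF, without overlap (log2 fold change 0.27, 95% interval 0.015 to 0.52, edgeR adjusted p = 0.421). Cbx7 varied more within groups than between them, at 30.6 and 21.0 CPM in MIG and 34.0 and 27.0 CPM in BATF. Over Polycomb the median log2 fold change was 0.24, with 5 of 7 positive and 0 of 7 called. Dropping MIG replicate 2 made that median 0.13, and dropping BATF replicate 1 made it 0.093.

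Among sirtuins and HDACs, the enzymes that remove acetyl groups from histones and other proteins, 0 of 11 passed, and 0 of 11 had an unadjusted p under 0.05. Class I HDACs form the catalytic core of nuclear corepressor complexes, and their intervals stayed inside 1.5-fold. Hdac1 stood at 293 and 275 CPM in MIG against 267 and 275 CPM in BATF (log2 fold change −0.069, 95% interval −0.26 to 0.12), and Hdac2 at 112 and 129 CPM in MIG and 117 and 130.2 CPM in BATF (log2 fold change 0.033, 95% interval −0.21 to 0.28). Hdac1 mRNA exceeded Hdac2 mRNA in each library, with FPKM ratios of 2.65 and 2.17 in MIG and 2.32 and 2.15 in BATF. Hdac3, the enzyme of the NCOR corepressors, gave a log2 fold change of −0.012 (95% interval −0.21 to 0.18).

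Class IIa HDACs shuttle between cytoplasm and nucleus under the control of T cell receptor kinases, and Hdac5 and Hdac7 were among the members with the least even replicates. Hdac7, the class IIa member most abundant here, stood at 326 and 227 CPM in MIG against 240.3 and 194 CPM in BATF, and the groups overlapped (log2 fold change −0.35, 95% interval −0.78 to 0.080, edgeR adjusted p = 0.596). The estimate depended on the library left out. It was −0.063 without MIG replicate 1, −0.60 without MIG replicate 2 (where it passed, edgeR adjusted p = 0.00414), −0.52 without BATF replicate 1 and −0.21 without BATF replicate 2. Hdac5 stood at 57.1 and 31.4 CPM in MIG against 61.6 and 42.6 CPM in BATF (log2 fold change 0.23, 95% interval −0.45 to 0.91), the widest interval of the 50. Hdac4 was low and even, with 25.3 and 21.7 CPM in MIG and 24.6 and 24.4 CPM in BATF.

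Sirtuins depend on NAD+ and so couple deacetylation to metabolism. Sirt7, of the nucleolus, had the highest level of the 5 (74.0 FPKM on average) and a log2 fold change of −0.081 (95% interval −0.39 to 0.23). Sirt2, which acts mostly in the cytoplasm, stood at 55.3 and 46.0 CPM in MIG against 65.6 and 57.9 CPM in BATF and did not overlap between groups (log2 fold change 0.28, 95% interval −0.0065 to 0.57, edgeR adjusted p = 0.482). Sirt1, the nuclear deacetylase, and Sirt3, of mitochondria, gave 0.10 and 0.15. Sirt6, a chromatin deacetylase of telomeres and repair sites, gave −0.066, with 28.4 CPM in MIG replicate 1 and 20.7 to 24.5 CPM in the other libraries.

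Acetyltransferases add the mark of active enhancers and promoters, and the 4 estimates ran from −0.14 to 0.031 on the log2 scale. Ep300 and Crebbp are coactivator paralogs that many enhancer-bound factors recruit. Ep300 stood at 228 and 220.1 CPM in MIG against 230.2 and 228 CPM in BATF (log2 fold change 0.031, 95% interval −0.15 to 0.21), and Crebbp at 66.7 and 60.3 CPM in MIG and 60.8 and 57.2 CPM in BATF (log2 fold change −0.11, 95% interval −0.33 to 0.12). Ep300 exceeded Crebbp in each library, with FPKM ratios of 2.93 and 3.12 in MIG and 3.24 and 3.41 in BATF. Kat2a and Kat2b, alternative catalytic subunits of the SAGA and ATAC complexes, stood at 93.2 and 89.2 CPM in MIG and 81.7 and 83.5 CPM in BATF and at 42.2 and 39.8 CPM in MIG and 39.2 and 38.1 CPM in BATF. Their log2 fold changes were −0.14 (95% interval −0.34 to 0.048) and −0.085 (95% interval −0.32 to 0.15), and their FPKM ratio was 3.46 and 3.49 in MIG and 3.22 and 3.41 in BATF. The groups did not overlap in either gene, and neither passed. Of the 4 intervals, 4 stayed inside 1.5-fold.

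Lysine demethylases differed in sign from each other. Kdm6b, which removes the lysine 27 mark that EZH2 adds, stood at 31.4 and 27.4 CPM in MIG against 21.0 and 22.7 CPM in BATF, with both BATF libraries below both MIG libraries (log2 fold change −0.43, 95% interval −0.73 to −0.13, edgeR adjusted p = 0.236). Its estimate was −0.32 to −0.53 in fits with 1 library left out, the latter without MIG replicate 2. The labels name a library kit that does not mark strand, so its reads cannot be told from those of the antisense RNA Kdm6bos, which covers 4.30% of its exonic bases. The same limit holds for other members with opposite-strand overlap, among them Ezh2 (3.28%), Setdb1 (6.95%), Suv39h1 (11.1%), Sirt3 (12.4%) and Eed (12.6%).

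Kdm2b, a CpG-binding demethylase that brings a Polycomb complex to CpG islands, stood at 80.8 and 73.0 CPM in MIG against 99.9 and 86.4 CPM in BATF (log2 fold change 0.28, 95% interval 0.027 to 0.52, edgeR adjusted p = 0.386). Its groups did not overlap, and 14.1% of its exonic bases lie under genes of the opposite strand, the most of any member. Kdm1a, also LSD1, which demethylates lysine 4, was the most abundant of the family per length, at 97.2 and 95.4 CPM in MIG and 93.4 and 98.2 CPM in BATF (log2 fold change −0.0080, 95% interval −0.20 to 0.18). Kdm4a, an eraser of lysine 9 and 36 methylation, gave 135 and 101 CPM in MIG and 154 and 135 CPM in BATF (log2 fold change 0.29, 95% interval −0.063 to 0.63). Kdm5b, an eraser of the active lysine 4 mark, was low, at 17.1 and 12.3 CPM in MIG and 18.2 and 15.7 CPM in BATF, and MIG replicate 2 was its lowest library, as it was for Kdm4a. Over the family the median log2 fold change was 0.20, and dropping MIG replicate 1 or 2 made it 0.35 or −0.019, while dropping BATF replicate 1 or 2 made it 0.090 or 0.31.

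The methyltransferases of lysine 9, the mark of heterochromatin, had intervals inside 1.5-fold in all 4 genes. Suv39h1, known in mouse CD8 T cells for silencing memory genes, gave a log2 fold change of −0.029 (95% interval −0.22 to 0.16) and 113 to 121 CPM over the 4 libraries. Setdb1, which silences retroelements, stood at 54.4 and 51.8 CPM in MIG and 48.8 and 49.4 CPM in BATF (log2 fold change −0.11, 95% interval −0.32 to 0.10). Ehmt1 and Ehmt2, which work as a pair, stood at 75.7 and 75.1 CPM in MIG and 74.9 and 70.7 CPM in BATF and at 325 and 252 CPM in MIG and 330.1 and 280.1 CPM in BATF. Their log2 fold changes were −0.051 (95% interval −0.25 to 0.15) and 0.080 (95% interval −0.25 to 0.41). Ehmt1 lay below Ehmt2 in each library, with FPKM ratios of 0.176 and 0.224 in MIG and 0.171 and 0.191 in BATF. None of the 4 passed, and none had an unadjusted p under 0.05.

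SWI/SNF complexes use ATP to move nucleosomes, with SMARCA4 or SMARCA2 as the alternative motor. Smarca4, the motor predominant here, stood at 377 and 346 CPM in MIG against 353 and 340.2 CPM in BATF (log2 fold change −0.059, 95% interval −0.26 to 0.14). Smarca2 stood at 77.9 and 78.6 CPM in MIG against 62.6 and 69.8 CPM in BATF, without overlap (log2 fold change −0.24, 95% interval −0.46 to −0.024, edgeR adjusted p = 0.383). Their FPKM ratio was 4.40 and 3.88 in MIG and 4.83 and 4.18 in BATF, and the groups overlapped in it. This ratio depended on the scale. The log2 of its BATF mean over its MIG mean was 0.12 in FPKM and 0.19 in raw fragments. The overlap is that of FPKM, and in raw fragments the groups narrowly did not overlap.

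The DNA-binding subunits ARID1A and ARID1B exclude each other in the complex. Arid1a stood at 440.2 and 398 CPM in MIG against 413 and 384 CPM in BATF (log2 fold change −0.075, 95% interval −0.29 to 0.14), and Arid1b at 103 and 85.0 CPM in MIG against 117 and 102 CPM in BATF (log2 fold change 0.22, 95% interval −0.063 to 0.50). Arid1a exceeded Arid1b in each library, and the FPKM ratio of the pair was 5.96 and 6.54 in MIG and 4.93 and 5.22 in BATF. Its mean was 0.812 times as high in BATF as in MIG, with no overlap (−0.30 on the log2 scale, and −0.36 to −0.23 with 1 library left out). Each of the 2 genes alone overlapped between groups, and a two-sided exact permutation p could not go below 0.3333 here either. The core subunit Smarcb1 gave 0.025 (95% interval −0.17 to 0.22).

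Of the CHD remodelers, Chd4, the motor of the NuRD complex, stood at 774 and 714 CPM in MIG against 788 and 712 CPM in BATF (log2 fold change 0.011, 95% interval −0.20 to 0.23). Chd7, which binds active enhancers, stood at 105 and 67.3 CPM in MIG against 106 and 71.8 CPM in BATF (log2 fold change 0.039, 95% interval −0.54 to 0.62). In Chd7 the libraries split by replicate number and not by group.

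**Figure D3:**
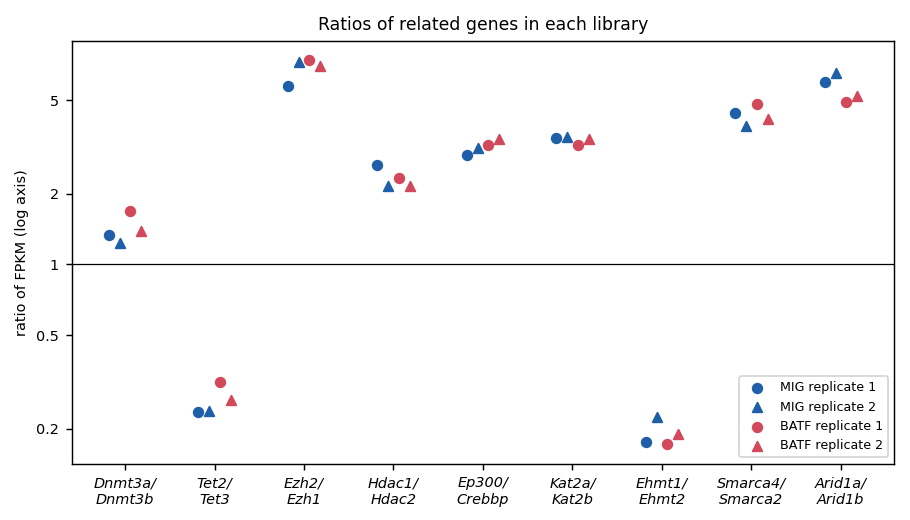
Ratio of FPKM between related genes in each of the 4 libraries (log axis), with colour for the group and shape for the replicate; the line marks equal levels. Arid1a/Arid1b and Kat2a/Kat2b are lower and Dnmt3a/Dnmt3b, Tet2/Tet3 and Ep300/Crebbp are higher in both BATF libraries, while Ezh2/Ezh1, Hdac1/Hdac2, Ehmt1/Ehmt2 and Smarca4/Smarca2 overlap between groups. The overlap of Smarca4/Smarca2 holds in FPKM and not in raw fragments. For every ratio, 2 libraries against 2 cannot give a two-sided exact permutation p below 0.3333.

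CTCF and cohesin, which together shape chromatin loops, had all 5 estimates between −0.12 and 0.049 on the log2 scale. Rad21, the subunit that closes the cohesin ring, stood at 536 and 564 CPM in MIG against 554 and 556 CPM in BATF (log2 fold change 0.013, 95% interval −0.17 to 0.20). Ctcf, the factor that stops loop extrusion, stood at 286 and 299.6 CPM in MIG against 276 and 264 CPM in BATF, below MIG in both BATF libraries (log2 fold change −0.12, 95% interval −0.31 to 0.070, edgeR adjusted p = 0.731). The ring subunits Smc1a and Smc3 and the accessory subunit Stag2 gave 0.049, −0.035 and −0.0020, each with an interval inside 1.5-fold.

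The 8 members with an unadjusted p under 0.05 had estimates from a fold of 0.735 to 1.31. The groups did not overlap in any of them, which so small a p nearly requires. With 1 library left out, the log2 fold change ran from 0.17 to 0.37 for Bmi1, 0.17 to 0.38 for Kdm2b, −0.32 to −0.16 for Smarca2 and −0.24 to −0.17 for Dnmt3a.

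**Figure D4:**
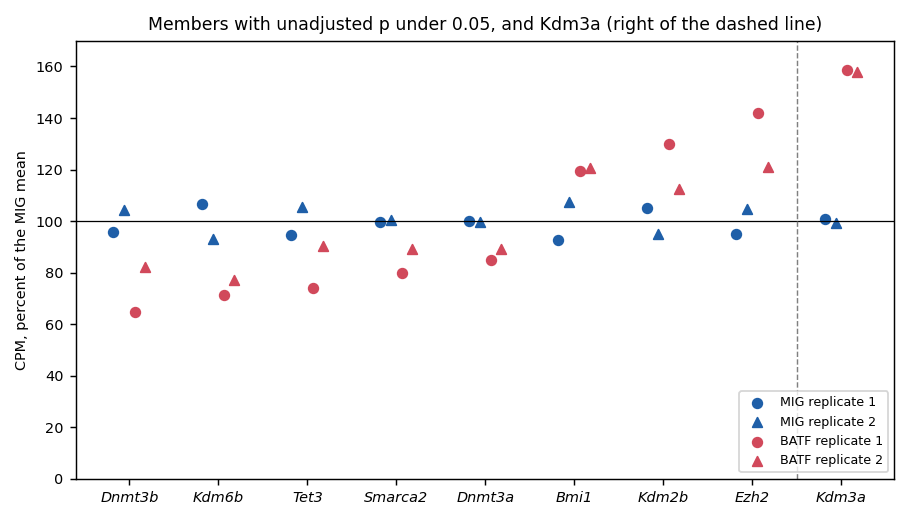
CPM in each library as a percent of the MIG mean, for the 8 members with an unadjusted p under 0.05 and for Kdm3a, a gene outside the 50 that passed the test; colour marks the group and shape the replicate. The BATF points of the 8 members lie on 1 side of the MIG points in every gene, and those of Kdm3a lie nearly together.

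Replicates of a group often differed by more than the groups did. In 37 of the 50 genes the larger gap between 2 libraries of a group, on the log2 CPM scale, exceeded the difference of the group means. Replicate 1 was higher than replicate 2 in both groups for 27 genes, lower in both for 11 and of mixed order for 12. These counts were not made over all genes tested, so they do not tell whether the members differ from other genes. The gaps were widest for Hdac5 (0.87 in MIG and 0.53 in BATF), Chd7 (0.64 and 0.56), Cbx7 (0.54 and 0.33) and Hdac7 (0.52 and 0.31). The numbers come from the deposited table, and no label says that they mark a shared mouse or day.

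**Figure D5:**
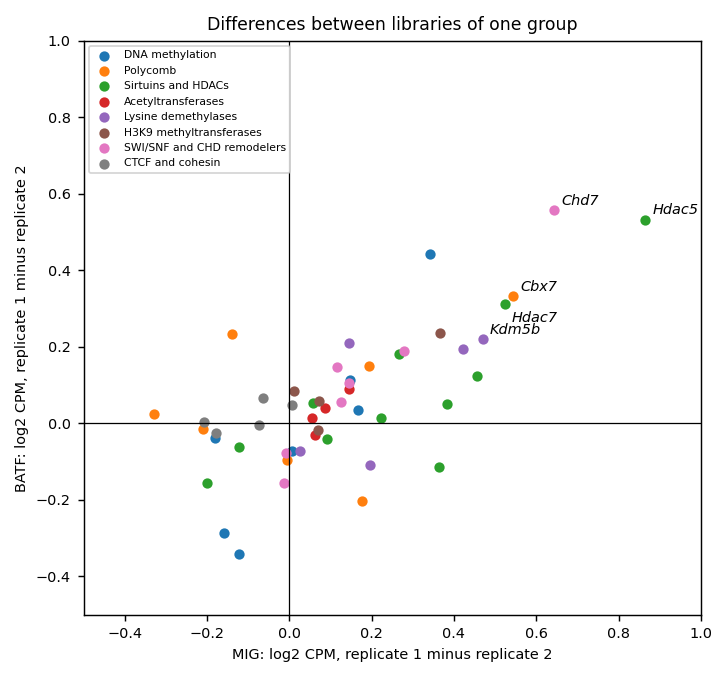
Difference in log2 CPM between replicate 1 and replicate 2 in MIG (x axis) and in BATF (y axis), 1 point per gene, coloured by family. Of the 50 points, 27 lie in the upper right and 11 in the lower left, with Hdac5 and Chd7 farthest out.

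A wider list of 182 other genes of these families was read in the same fit, of which 175 passed the filter. Among them 1 passed the test, Kdm3a, which removes methyl groups from lysine 9 and is known as a target of the hypoxia factor HIF-1. Kdm3a rose from 117 and 115 CPM in MIG to 184 and 182 CPM in BATF, a 1.58-fold difference (log2 fold change 0.66, 95% interval 0.48 to 0.84, edgeR adjusted p = 0.0203). It passed in DESeq2 and missed in limma on log2(FPKM + 1) (adjusted p = 0.0623). Its log2 fold change was 0.64 to 0.68 with 1 library left out. The list had 11 genes with a positive and 4 with a negative change at an unadjusted p under 0.05, 8.57% of those tested beside 10.8% of all genes. By family the calls were 1 of 16 lysine demethylases and 0 of 11 in DNA methylation, 27 in Polycomb, 15 in sirtuins and HDACs, 13 in acetyltransferases and their readers, 8 in lysine 9 methylation, 26 other histone methyltransferases, 37 remodelers and 22 in CTCF, cohesin and condensin. Aebp2, an accessory subunit of the EZH2 complex, came closest among the rest, with 272 and 274 CPM in MIG and 368 and 374 CPM in BATF (log2 fold change 0.44, 95% interval 0.26 to 0.62, edgeR adjusted p = 0.0554), and was chosen after its values were seen. Aebp2 passed in DESeq2 (adjusted p = 0.00751) and with no filter on low counts (edgeR adjusted p = 0.0207). It missed in limma (adjusted p = 0.177), and its log2 fold change was 0.43 to 0.46 with 1 library left out. The median log2 fold change of the list was −0.0084.

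The promoters of the genes were read for letters that AP-1 factors bind. RefSeq promoter sequences of GRCm38.p6 matched 44 of the 50 members, with 63 start sites, and the 250 bases before each were searched on both strands. Kdm6b, Rad21, Hdac1, Hdac3, Chd7 and Stag2 had no match and were not searched. The AP-1 motif TGANTCA was present in 3 of the 63 (4.76%), beside 4.40% of 12586 promoters of genes tested, and the CRE motif TGACGTCA in 0 of 63, beside 2.62%. The median number of CpG dinucleotides was 21 in the members' promoters and 15 in those of genes tested. The 3 AP-1 matches are printed with up to 12 bases on either side and the motif in capitals, because they show the only such letters in the members' stretches searched. They begin 240 bases before the start site of Kat2b (chr17:53566721-53566749, plus strand), 190 before that of Kdm4a (chr4:118180215-118180245, minus strand) and 159 before that of Smarcb1 (chr10:75921755-75921785, minus strand):
Kat2b: cacacaccatTGAGTCAtctccctccctc
Kdm4a: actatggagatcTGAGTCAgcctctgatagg
Smarcb1: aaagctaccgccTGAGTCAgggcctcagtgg
The log2 fold changes of these 3 genes were −0.085, 0.29 and 0.025, none past the test. Kdm3a, the chromatin gene that passed, held neither motif in the first of its 3 listed promoters (chr6:71632918-71633167, minus strand), which had 20 CpG dinucleotides, in capitals here:
Kdm3a: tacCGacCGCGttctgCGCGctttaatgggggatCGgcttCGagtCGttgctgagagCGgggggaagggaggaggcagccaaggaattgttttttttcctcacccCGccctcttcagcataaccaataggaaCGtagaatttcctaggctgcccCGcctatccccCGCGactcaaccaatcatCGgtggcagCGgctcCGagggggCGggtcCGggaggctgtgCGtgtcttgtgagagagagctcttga
A match describes letters and not binding, which was not measured.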

How the data were processed

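Poly(A) RNA of 2 MIG and 2 BATF libraries was sequenced, with groups taken from the sample titles. Per the submitters' processing notes, the tools were TopHat2 2.1.1, Cufflinks 2.2.2 and Cuffdiff on build mm9; for annotation and strand setting, the sources used here give nothing. The authors deposited a long table with estimated counts (fragments per gene from Cuffdiff, unscaled; 97.6% whole numbers), a signal scaled by a library factor of 0.889 to 1.11 and FPKM, per the file headers. The deposited scaled signal served only to check the columns. The table numbers replicates 0 and 1, called 1 and 2 here. No source ties these numbers to the titles, so a library is known by its group only.

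After rounding, estimated counts went into edgeR 4.0.16 under R 4.3.3 (filterByExpr, TMM factors 0.988 to 1.01, glmQLFit and glmQLFTest, no covariate), with Benjamini-Hochberg adjustment over 13008 genes and a threshold of 0.05. The biological coefficient of variation was 11.3%. Intervals are 95% intervals of the unshrunk coefficient. Alternatives were DESeq2 1.42.0, limma 3.58.1 on log2(FPKM + 1), DESeq2's size factor scaling, no filter, a replicate block and each library left out. The fits were tested on simulated data. The members and lists were chosen with earlier results of these data known. Genes given in full were those with an unadjusted p under 0.05, the largest change and highest FPKM of each family, the pairs in ratios and genes under 1 FPKM. Opposite-strand overlap came from GENCODE M21 (GRCm38); 12 of 50 members had some, from 0.082% to 14.1% of exonic bases.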

Additional observations from a re-analysis of the deposited data

How the results depend on the processing

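Of 50 members 0 were called with all libraries, with DESeq2's size factor scaling, with no filter on low counts, in DESeq2 and in limma on log2(FPKM + 1), and 0 to 3 with 1 library left out. The table's replicate numbers are not known to pair samples: deviations of the number 1 libraries correlated at 0.18 over 13008 genes, for 2 pairs only. Adding that number as a replicate block, with 1 degree of freedom left, edgeR called 13 members (26.0%, beside 11.6% of all genes tested), 16 other chromatin genes and 1504 genes in all. The members were Arid1b, Bmi1, Ezh1, Ezh2, Hdac5, Kdm2b, Kdm4a and Sirt2 (8 higher) and Dnmt3b, Hdac7, Kdm6b, Smarca2 and Tet3 (5 lower). All-gene calls were 142 with all libraries, 349 with no filter, 349 in DESeq2, 44 in limma and 248 to 589 with 1 library left out. Calls among the other chromatin genes were 1, 3, 3, 0 and 1 to 5 in the same order. Kdm3a was called in every fit but limma.

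Signs turned for uncalled genes, mostly where the estimate was near 0 but also for Tet1 (log2 fold change 0.22), and the cause was not tested. With 1 library left out in turn, the log2 fold change ran from −0.13 to 0.046 for Dnmt1, −0.011 to 0.43 for Tet1, −0.083 to 0.087 for Tet2, −0.061 to 0.13 for Hdac2, −0.0031 to 0.062 for Ep300, −0.045 to 0.028 for Kdm1a, −0.10 to 0.28 for Ehmt2, −0.13 to 0.0080 for Smarca4, −0.15 to 0.0029 for Arid1a, −0.064 to 0.083 for Chd4 and −0.020 to 0.042 for Rad21. Tet2 was −0.0017 in DESeq2 and −0.0013 in limma. With 2 libraries a group, intervals of uneven or low genes such as Hdac5, Chd7 and Tet1 reach past 1.5-fold. Differences of that size are not excluded there. Smaller differences could also miss the threshold in genes with narrower intervals, as in Aebp2 (1.36-fold, edgeR adjusted p = 0.0554) and Ezh2 (1.31-fold, edgeR adjusted p = 0.194). The 0 calls therefore do not show that the members were unchanged.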
